A study of Rattus norvegicus with 6 samples.

Results

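The 38 genes described here make, recycle or carry amino acids: enzymes of serine, glycine, asparagine and proline synthesis, the folate one-carbon cycle, transsulfuration and glutathione synthesis, transaminases, and amino acid transporters, most of them of the plasma membrane. They are listed by name, as genes that the transcription factor ATF4 is known to act on or that belong to the same pathways; the list was drawn up with earlier results of these arrays known. Of the 38, 37 were measured, each by the brightest probe set annotated with that gene symbol alone, among 14506 genes measured this way and 29214 probe sets in all. Glul, which encodes glutamine synthetase, was matched to no probe set in the annotation used here. The cells were RBL-2H3, a rat basophilic leukaemia line used as a model of mast cells, kept in serum-containing Dulbecco's modified Eagle's medium and overexpressing wild-type Dectin-1, the receptor for fungal beta-glucan. There were 3 groups with 2 arrays each, and every group carried the receptor. Control cells received no stimulus, curdlan cells were stimulated with curdlan, an insoluble beta-glucan, and the last group was pretreated with R406, an inhibitor of the kinase Syk, before curdlan. There was no group with R406 alone. Values are log2 signals, so a difference of 1 is a doubling, and each change subtracts one group mean from another and is followed by ± its standard error (SE) from limma.

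ATF4 is translated when the initiation factor eIF2 is phosphorylated, as happens when uncharged transfer RNA or unfolded protein accumulates, and it then raises transcription of genes that make and import amino acids. Much of this control acts on translation and protein stability, so the level of Atf4 messenger RNA is only one part of ATF4 activity. Activated immune cells also raise amino acid uptake through MYC and mTORC1, and the glutathione genes among the members answer to NRF2, a factor of the antioxidant response. A comparison of the members with Atf4 therefore asks whether this set of genes moved as the Atf4 transcript did.

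The arrays resembled each other closely, with medians from 7.204 to 7.241. Markers of mast cells were bright, with 9 of 11 above the median probe set, against 2 of 12 markers of macrophages and neutrophils, 1 of 8 of lymphocytes and 4 of 10 of fibroblasts and epithelia. The mean log2 signal of the macrophage and neutrophil list lay between 6.66 and 6.75 on the 6 arrays, and 1 of its genes, Itgam, had a lower signal under R406 (-0.36); its part in the results was not tested. Clec7a, the rat gene for Dectin-1, had a log2 signal from 6.94 to 7.23, and the labels do not say whether its probes read the introduced receptor. Each array averages many cells, so a lower share of cells with a transcript and less transcript in each cell cannot be told apart.

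Atf4 (probe set 10897760) had log2 signals of 11.95 and 11.81 in the control arrays, 11.07 and 11.02 in the curdlan arrays and 12.09 and 12.05 in the R406 plus curdlan arrays. The curdlan arrays were thus the lowest, and no group overlapped another. The transcript was 1.78-fold lower with curdlan than in control cells (-0.83 ± 0.0639, limma, Benjamini-Hochberg adjusted p = 0.0131) and 2.04-fold higher with R406 plus curdlan than with curdlan alone (1.03 ± 0.0639, adjusted p = 0.00284). Between R406 plus curdlan and control the difference was 0.19 ± 0.0639 (adjusted p = 0.187). The fall with curdlan did not pass in any of the 6 fits that left out 1 array (adjusted p from 0.0589 to 0.122), whereas the rise under R406 passed in each of them (0.00995 to 0.0401).

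Most of the amino acid genes did not share this pattern. With curdlan, 2 of 37 fell and 1 rose, with 34 not passing, while 1.59% of all probe sets were called in this comparison, 1.04% as higher and 0.551% as lower. Those that fell were Slc1a4 and Slc38a2, which encode the neutral amino acid transporters ASCT1 and SNAT2, and the one that rose was Slc1a5, which encodes the glutamine transporter ASCT2. With R406 plus curdlan against curdlan alone, Slc1a4 and Slc38a2 rose while Slc1a5, the arginine and neutral amino acid transporter gene Slc7a6 and the cytosolic serine hydroxymethyltransferase gene Shmt1 fell, which is 5 of 37, where 7.25% of all probe sets were called, 4.02% as higher and 3.23% as lower. All named genes were measured by 1 probe set each, as the members were. Of them, 1.42% were called higher and 0.71% lower with curdlan, and 5.17% and 4.01% under R406. Of the 37 members, 33 had a mean signal above the median of all probe sets. The median change over the 37 genes was -0.034 with curdlan, against -0.020 over all named genes, and 0.035 under R406, against -0.0023. An unadjusted p under 0.05 was reached by 10 of the 37 genes with curdlan and 14 under R406, where 15.9% and 25.1% of all named genes reached it. The mean log2 signal of the 37 genes was 11.00 and 10.98 in the control arrays, 10.95 and 10.95 in the curdlan arrays and 10.96 and 10.98 in the R406 plus curdlan arrays.

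**Figure D1:**
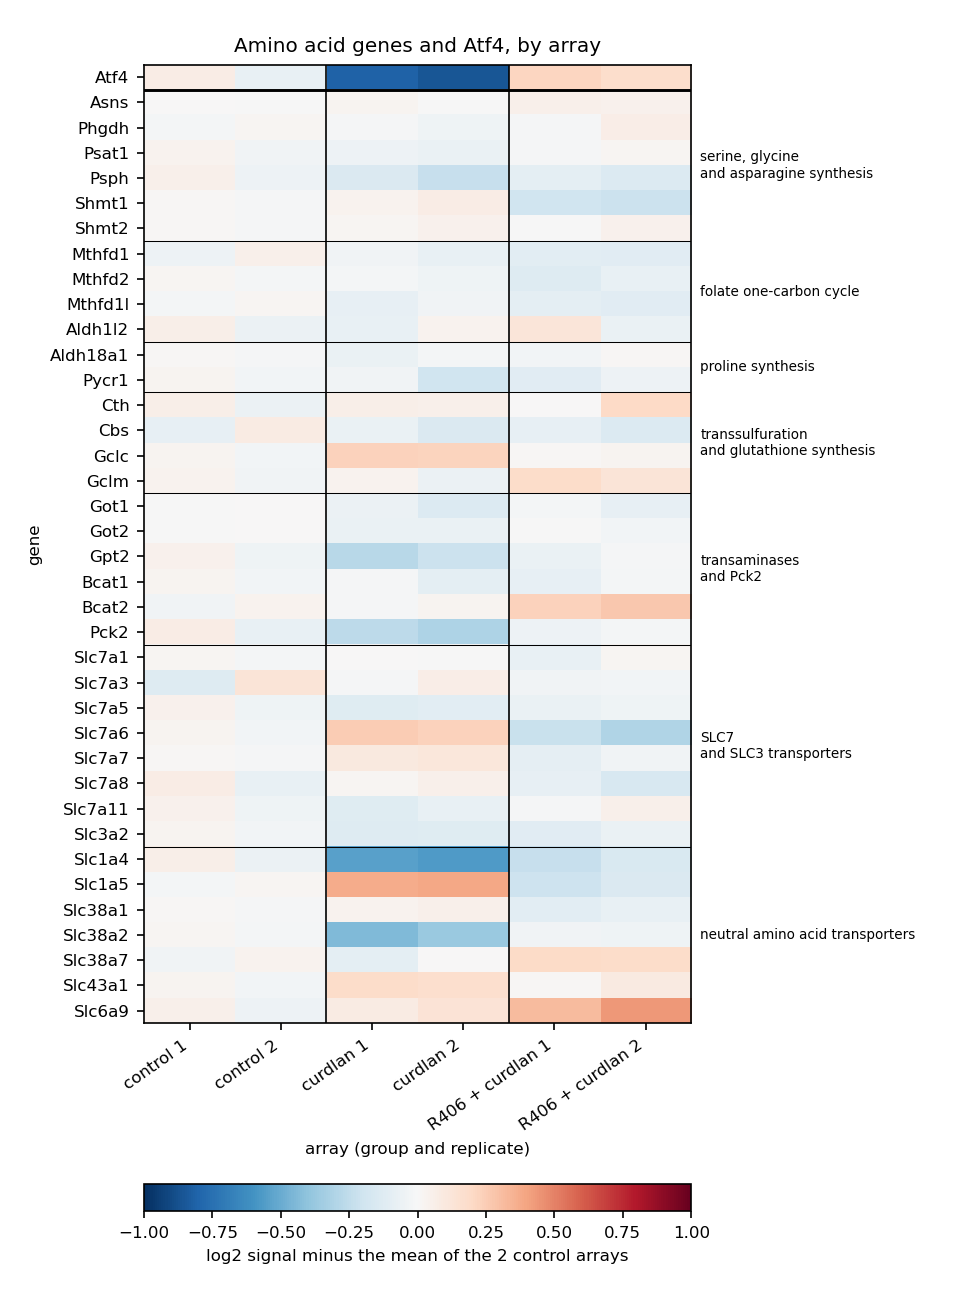
Log2 signal of Atf4 and of the 37 measured amino acid genes on each of the 6 arrays, as the difference from the mean of the 2 control arrays of that gene (blue lower, red higher). Atf4 is blue in both curdlan arrays, and of the genes below it Slc1a4 and Slc38a2 show the clearest blue and Slc1a5 the clearest red there.

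The 95% intervals of the genes not called were set beside the change of Atf4. For the 34 genes not called with curdlan, estimated changes lay between -0.29 (Pck2) and 0.24 (Slc7a6), and 22 of them were under 0.1 in size. The interval that came nearest to the fall of Atf4 was that of Pck2, whose lower 95% bound of -0.46 is 55.0% of Atf4's change of -0.83. For the 32 genes not called under R406, changes lay between -0.20 (Gclc) and 0.26 (Slc6a9), and the bound nearest to Atf4's rise of 1.03 was 0.43 for Slc6a9, or 42.3% of it. These intervals are for 1 gene at a time and rest on 2 arrays a group. Leaving out the called genes removes the largest changes, and the interval of Slc1a4 with curdlan reached -0.71. The shares use the estimate for Atf4, whose own interval was -0.99 to -0.67 with curdlan and 0.86 to 1.19 under R406. Spread between arrays may be technical, so the intervals may not hold between cultures. In the descriptions by role, a number in parentheses directly after a gene is its probe set.

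**Figure D2:**
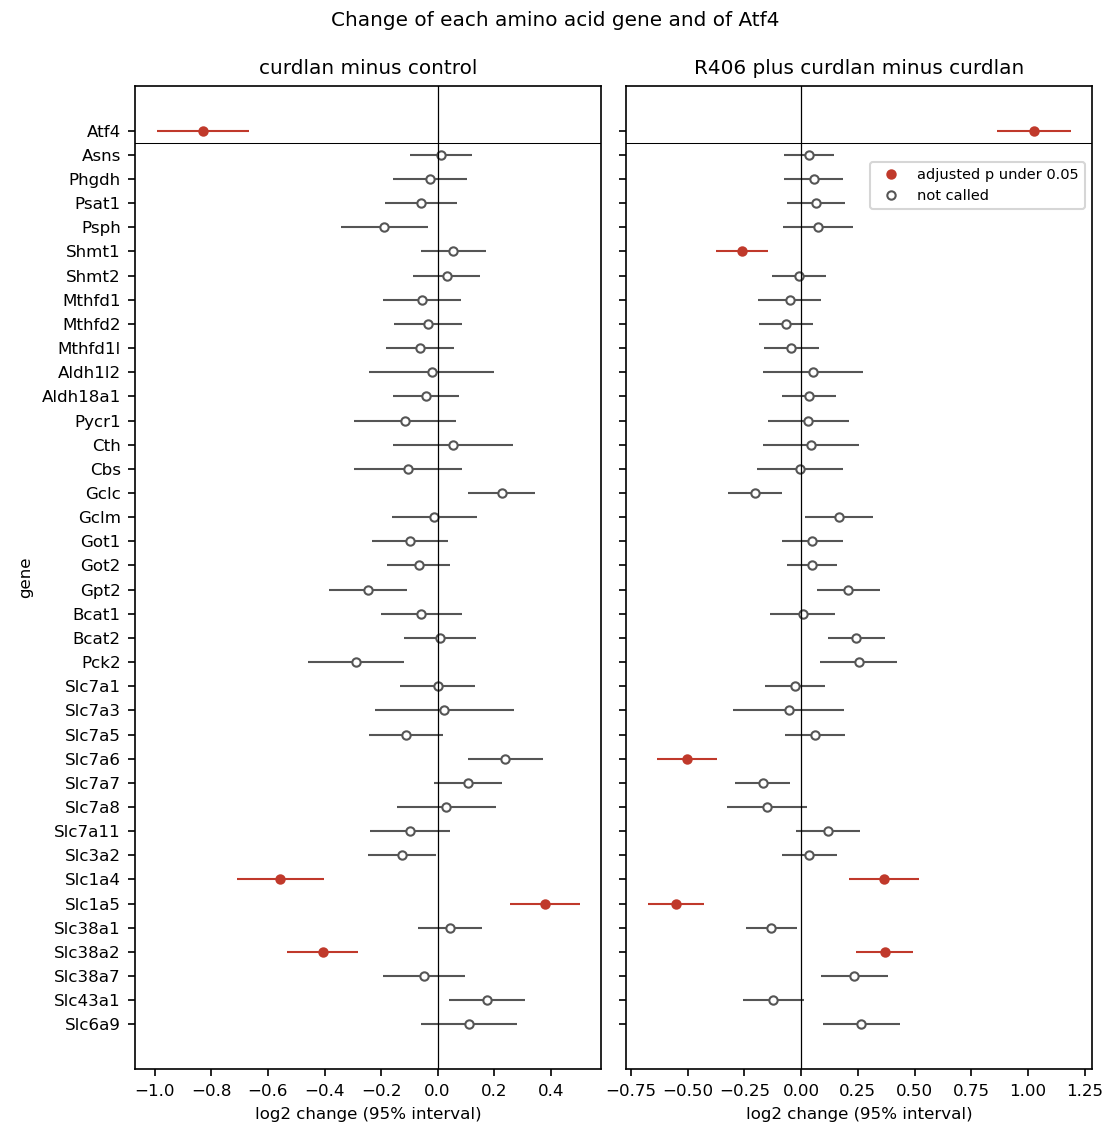
Log2 change of Atf4 and of each amino acid gene with its 95% interval from limma, with curdlan against control on the left and with R406 plus curdlan against curdlan alone on the right; filled red points had an adjusted p under 0.05 over all probe sets. Atf4 lies at -0.83 and 1.03, and the open points of genes not called lie between -0.29 and 0.26.

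The genes that moved were mostly carriers of neutral amino acids. Slc1a4 (probe set 10778620) had log2 signals of 11.90 and 11.79 in control, 11.30 and 11.28 in curdlan and 11.62 and 11.69 in R406 plus curdlan arrays. Both curdlan arrays were the lowest of the 6, and the R406 plus curdlan arrays lay between them and the control arrays. It fell 1.47-fold with curdlan (-0.56 ± 0.0603, adjusted p = 0.0292) and rose 1.29-fold under R406 (0.37 ± 0.0603, adjusted p = 0.0318). Slc38a2 (probe set 10906608), whose product takes up small neutral amino acids with sodium and is known to be induced by amino acid shortage, had 13.07 and 13.03 in control, 12.61 and 12.68 in curdlan and 13.02 and 13.01 in R406 plus curdlan arrays. Here, too, the curdlan arrays stood below the other 4. Slc38a2 fell 1.33-fold with curdlan (-0.41 ± 0.0498, adjusted p = 0.0374) and rose 1.29-fold under R406 (0.37 ± 0.0498, adjusted p = 0.0192). Neither fall with curdlan passed in any of the 6 fits that left out 1 array (adjusted p from 0.105 to 0.166 for Slc1a4 and from 0.130 to 0.182 for Slc38a2), and both rises under R406 were lost when any 1 of the 4 arrays compared was left out (adjusted p up to 0.187 and 0.134).

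Slc1a5 (probe set 10704505), the closest relative of Slc1a4 among the members, went the other way. Its log2 signals were 10.99 and 11.03 in control, 11.38 and 11.40 in curdlan and 10.80 and 10.87 in R406 plus curdlan arrays. The curdlan arrays were the highest and the R406 plus curdlan arrays the lowest. Slc1a5 rose 1.30-fold with curdlan (0.38 ± 0.0488, adjusted p = 0.0408) and fell 1.47-fold under R406 (-0.55 ± 0.0488, adjusted p = 0.00654). Its rise with curdlan also passed in none of the 6 fits that left out 1 array (adjusted p from 0.128 to 0.192), and its fall under R406 passed in 4 of them, being lost without either R406 plus curdlan array. As a share of the change of Atf4 with curdlan, the change of Slc1a4 was 67.0%, that of Slc38a2 48.9% and that of Slc1a5 -45.6%.

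None of the other 4 neutral transporters passed in either comparison, with 1 unadjusted p under 0.05 for curdlan and 3 for R406. Slc38a1 (10906592), which encodes SNAT1, is the next protein-coding gene to Slc38a2 on chromosome 7 of the assembly GRCr8. Its log2 signals were 12.64 and 12.62 in control, 12.67 and 12.68 in curdlan and 12.53 and 12.56 in R406 plus curdlan arrays, so its curdlan arrays were the highest where those of Slc38a2 were the lowest. Its change with curdlan was 0.045 ± 0.0442 (adjusted p = 0.725, 95% interval -0.068 to 0.16), an interval that does not reach the change of Slc38a2. Slc38a7 (10805802), a lysosomal glutamine exporter gene, had changes of -0.048 ± 0.0572 with curdlan and 0.24 ± 0.0572 under R406 (adjusted p = 0.084). Slc43a1 (10837351), which encodes the branched-chain amino acid carrier LAT3, had a change of 0.17 ± 0.0528 with curdlan (adjusted p = 0.231). Slc6a9 (10871444), which encodes the glycine transporter GLYT1, had log2 signals of 11.67 and 11.56 in control, 11.70 and 11.75 in curdlan and 11.93 and 12.04 in R406 plus curdlan arrays. Its groups did not overlap, and its difference of 0.37 ± 0.0666 between R406 plus curdlan and control (adjusted p = 0.0659) was the largest of any member in that comparison.

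**Figure D3:**
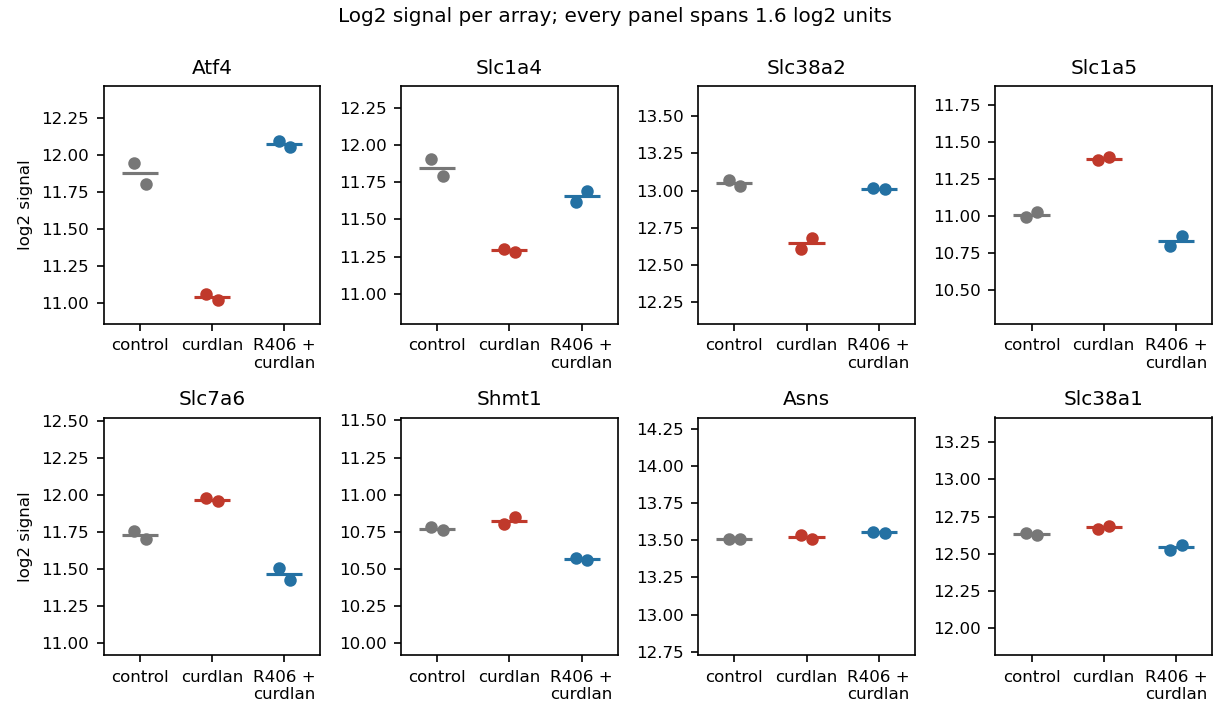
Log2 signal on each array (points) with the group mean (bars) for Atf4, the 5 amino acid genes called in a comparison, and Asns and Slc38a1, which were not called. Every panel spans the same range of 1.6 log2 units; the curdlan arrays of Atf4, Slc1a4 and Slc38a2 are the lowest, and those of Slc1a5, Slc7a6, Shmt1 and Slc38a1 the highest, by small margins in Shmt1 and Slc38a1.

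The promoters of these transporters are shown because ATF4 with a C/EBP partner is known to bind a composite element, written here as TGATGNAAN, and the genes that carried it and those that moved could be set side by side. The sequences are RefSeq's for GRCr8, read 5′ to 3′ along the gene's strand over the 250 bases before the annotated start, in lower case, with each match to the element on either strand in capitals. The Slc1a4 stretch is chr14:98761563-98761812 on the minus strand, that of Slc38a2 chr7:129742620-129742869 on the minus strand, that of Slc38a1 chr7:129681402-129681651 on the minus strand, and that of Slc7a1 chr12:11664238-11664487 on the plus strand. In the gene annotation, Slc38a1 extends to base 129681727 and Slc1a4 to base 98761672. The Slc38a1 stretch therefore lies within the annotated gene and the Slc1a4 stretch partly within it, so the starts used there are not the outermost ones.
Slc1a4: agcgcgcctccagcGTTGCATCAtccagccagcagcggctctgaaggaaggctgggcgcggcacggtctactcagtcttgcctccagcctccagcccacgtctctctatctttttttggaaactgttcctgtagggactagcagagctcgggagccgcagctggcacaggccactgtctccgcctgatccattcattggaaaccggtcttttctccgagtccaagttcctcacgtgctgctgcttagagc
Slc38a2: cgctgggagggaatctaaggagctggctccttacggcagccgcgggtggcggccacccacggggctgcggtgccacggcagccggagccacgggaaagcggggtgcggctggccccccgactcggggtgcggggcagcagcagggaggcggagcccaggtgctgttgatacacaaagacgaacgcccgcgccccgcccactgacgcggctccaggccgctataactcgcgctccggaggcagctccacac
Slc38a1: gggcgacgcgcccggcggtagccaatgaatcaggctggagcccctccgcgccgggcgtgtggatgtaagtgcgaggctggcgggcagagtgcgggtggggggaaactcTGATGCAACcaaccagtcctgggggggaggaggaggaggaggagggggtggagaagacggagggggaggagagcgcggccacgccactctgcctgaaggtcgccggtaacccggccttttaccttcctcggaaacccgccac
Slc7a1: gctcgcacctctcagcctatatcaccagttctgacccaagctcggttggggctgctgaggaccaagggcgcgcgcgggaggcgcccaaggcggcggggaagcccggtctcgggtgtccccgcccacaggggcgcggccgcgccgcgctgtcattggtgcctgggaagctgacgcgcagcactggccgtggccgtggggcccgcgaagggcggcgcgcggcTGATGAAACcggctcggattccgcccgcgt
The Slc1a4 match begins 236 bases before the start, that of Slc38a1 142 bases and that of Slc7a1 30 bases, and the Slc38a2 stretch has no match. Slc1a4 and Slc38a2 fell with curdlan while Slc38a1 and Slc7a1 did not pass, with changes of 0.045 and 0.00055. The promoters printed were picked without a set rule. The remaining members with a match, Pck2, Pycr1 and Got1, had changes of -0.29, -0.12 and -0.099 with curdlan and were not called. A link between the element and the changes was not tested. Of 6 stress-response genes that fell with curdlan and were searched as well, picked after their values were seen, Trib3, Chac1 and Herpud1 held a match. Their changes with curdlan were -2.40, -1.77 and -0.99. No match was listed for Atf4, Ddit3 and Ddit4, whose changes were -0.83, -1.12 and -3.47. Whether these last genes had a promoter among those searched was not recorded, so absence of the element is not shown for them.

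Of the 37 measured genes, 32 had a promoter in the RefSeq table; Mthfd1, Aldh1l2, Aldh18a1, Slc7a3 and Slc1a5 had no entry matched. In windows from 250 bases before to 50 bases after the start, TGATGNAAN was found on either strand in 6 of the 32 (18.8%), namely Got1, Pck2, Pycr1, Slc1a4, Slc38a1 and Slc7a1, and in 3.97% of all 33469 promoters. With curdlan, Slc1a4 of these 6 fell, and the changes of the other 5, which were not called, ran from -0.29 (Pck2) to 0.045 (Slc38a1). The cyclic AMP response element TGACGTCA was found in 0 of the 32 and in 1.83% of all promoters. The core of the antioxidant response element, TGACNNNGC, was found in 7 of the 32 (21.9%), among them Gclm, Slc3a2 and Slc38a2, and in 12.1% of all. A match describes these letters and does not show that a factor was bound in these cells. Elements outside these windows, or spelled otherwise, were not searched. The list holds genes that ATF4 is known to act on, so the higher share with TGATGNAAN could follow from that choice.

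Among the 8 carriers of the SLC7 and SLC3 families, most of which pair a light chain with the heavy chain 4F2hc, Slc7a6 alone was called. Slc7a6 (probe set 10807473), which encodes the light chain y+LAT2, had log2 signals of 11.75 and 11.70 in control, 11.98 and 11.96 in curdlan and 11.51 and 11.43 in R406 plus curdlan arrays. The 3 groups were apart, in the same order as for Slc1a5. Slc7a6 fell 1.42-fold under R406 (-0.50 ± 0.0521, adjusted p = 0.00956), and its change with curdlan was 0.24 ± 0.0521 (adjusted p = 0.123). Slc7a5 (10811531), which encodes the leucine carrier LAT1, had changes of -0.11 ± 0.0514 with curdlan (adjusted p = 0.413) and 0.060 ± 0.0514 under R406. Slc3a2 (10728507), which encodes 4F2hc itself, had -0.13 ± 0.0475 (adjusted p = 0.326) and 0.036 ± 0.0475. Slc7a11 (10823057), which encodes the cystine-glutamate exchanger xCT and is a well-known ATF4 and NRF2 target, had -0.099 ± 0.0555 (adjusted p = 0.51) and 0.12 ± 0.0555 (adjusted p = 0.304).

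In these 3 the curdlan arrays were the lowest of the 6, as for Atf4, by small margins. For Slc7a5 the log2 signals were 13.26 and 13.17 in control, 13.09 and 13.10 in curdlan and 13.15 and 13.17 in R406 plus curdlan arrays. Slc7a1 (10756393), the main cationic amino acid transporter gene, had a change of 0.00055 ± 0.0518 with curdlan and -0.028 ± 0.0518 under R406. Slc7a7 (10783537), which encodes the light chain y+LAT1, had -0.17 ± 0.0473 under R406 (adjusted p = 0.114). Slc7a3 (10938635) and Slc7a8 (10783648) had mean signals of 5.93 and 6.42, below the median probe set, as did Aldh1l2 (10894582) and Cbs (10832175) of the enzymes.

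Enzymes that make serine, glycine and asparagine are among the best known targets of ATF4, and their transcripts differed little. Asns, which encodes asparagine synthetase (probe set 10860951), had log2 signals of 13.51 and 13.51 in control, 13.53 and 13.51 in curdlan and 13.56 and 13.55 in R406 plus curdlan arrays. The control and curdlan arrays overlapped, and the 95% interval of the change with curdlan ran from -0.097 to 0.12, around 0.013. Its mean signal was 13.53, not far below the brightest probe sets of the arrays (14.37 to 14.41), and compression of bright signals was not tested. Phgdh (10825328) and Psat1 (10729096), which encode the first steps of serine synthesis, had changes of -0.027 ± 0.051 and -0.059 ± 0.05 with curdlan and 0.056 ± 0.051 and 0.065 ± 0.05 under R406. Psph (10761394), which encodes the last step, had -0.19 ± 0.0606 with curdlan (adjusted p = 0.259), with curdlan arrays at 10.64 and 10.55 against 10.84 and 10.73 in control. A second, dimmer probe set of Psat1 (10823611) ranged from 9.91 to 10.31, with both extremes outside the curdlan group.

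Shmt1 (probe set 10743318), which encodes the cytosolic enzyme that turns serine into glycine, was the only enzyme called. Its log2 signals were 10.78 and 10.76 in control, 10.80 and 10.85 in curdlan and 10.57 and 10.56 in R406 plus curdlan arrays. The R406 plus curdlan arrays were below the other 4, and the transcript fell 1.20-fold under R406 (-0.26 ± 0.0452, adjusted p = 0.0356). This call was lost in all 6 fits that left out 1 array (adjusted p from 0.0724 to 0.208), with each array centred on its median and with the arrays of the compared groups alone. Shmt2 (10903061), which encodes the mitochondrial form, had a change of -0.011 ± 0.0466 under R406, with a 95% interval from -0.13 to 0.11 that does not reach the change of Shmt1.

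No gene of the folate one-carbon cycle or of proline synthesis was called in any comparison by limma, with 0 unadjusted p under 0.05 among these 6 genes with curdlan or under R406. Mthfd2 (probe set 10870316), a mitochondrial folate enzyme gene that ATF4 is known to raise, had log2 signals of 13.02 and 12.98 in control, 12.98 and 12.96 in curdlan and 12.87 and 12.92 in R406 plus curdlan arrays. Its change with curdlan was -0.034 ± 0.0469 and that under R406 -0.068 ± 0.0469. Mthfd1 (10885382), the cytosolic folate enzyme gene, and Mthfd1l (10702626), a mitochondrial one, had changes of -0.056 ± 0.0538 and -0.061 ± 0.0474 with curdlan, and Aldh1l2 had -0.020 ± 0.0866. Aldh18a1 (10730098) and Pycr1 (10749716), which encode the first and last steps of proline synthesis, had -0.042 ± 0.0461 and -0.12 ± 0.0704. Second probe sets of Mthfd1 and Mthfd2 ranged from 9.87 to 10.06 and from 12.77 to 12.93.

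Neither glutathione gene was called in any comparison by limma, and the difference between them was not tested. Gclc (probe set 10911747) encodes the catalytic subunit of glutamate-cysteine ligase and had log2 signals of 11.67 and 11.61 in control, 11.87 and 11.86 in curdlan and 11.65 and 11.67 in R406 plus curdlan arrays. Both curdlan arrays were above the other 4, with changes of 0.23 ± 0.0468 with curdlan (adjusted p = 0.109) and -0.20 ± 0.0468 under R406 (adjusted p = 0.0722). Gclm (10818793), which encodes the modifier subunit of the same enzyme, had 11.41 and 11.34 in control, 11.41 and 11.31 in curdlan and 11.56 and 11.50 in R406 plus curdlan arrays. Here the R406 plus curdlan arrays were the highest, with changes of -0.012 ± 0.0589 and 0.17 ± 0.0589 (adjusted p = 0.186). The transsulfuration genes Cth (10827517) and Cbs, whose products make cysteine from homocysteine, had changes of 0.054 ± 0.0832 and -0.10 ± 0.0747 with curdlan.

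Of the transaminase genes and Pck2, none passed in any comparison by limma; 2 of the 6 had an unadjusted p under 0.05 for a lower level with curdlan, against 8.45% of all named genes, and 3 for a higher level under R406, against 14.2%. Pck2 (probe set 10780360), which encodes the mitochondrial phosphoenolpyruvate carboxykinase, had log2 signals of 10.01 and 9.86 in control, 9.67 and 9.62 in curdlan and 9.88 and 9.91 in R406 plus curdlan arrays. Gpt2 (probe set 10809824), the mitochondrial alanine transaminase gene, had 9.16 and 9.08 in control, 8.84 and 8.90 in curdlan and 9.05 and 9.10 in R406 plus curdlan arrays. In both, the curdlan arrays were below the other 4. Their changes were -0.29 ± 0.0664 and -0.25 ± 0.0543 with curdlan (adjusted p = 0.14 and 0.127) and 0.25 ± 0.0664 and 0.21 ± 0.0543 under R406 (adjusted p = 0.1 and 0.0983). Bcat2 (10706884), which encodes the mitochondrial branched-chain transaminase, had 10.57 and 10.61 in the R406 plus curdlan arrays against 10.30 to 10.37 in the other 4, a difference of 0.24 ± 0.0497 from curdlan (adjusted p = 0.0544). Got1 (10715364), Got2 (10805794) and Bcat1 (10866819) had changes between -0.099 and -0.057 with curdlan.

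A single contrast of the curdlan group against the mean of the other 2 groups was chosen for the shape that Atf4 followed, so the value of Atf4 in it, -0.93 ± 0.0553, is a description. Calls in it are by limma with Benjamini-Hochberg adjustment. Of the 37 genes, 2 were lower in this contrast, Slc1a4 at -0.46 ± 0.0522 (adjusted p = 0.0164) and Slc38a2 at -0.39 ± 0.0431 (adjusted p = 0.0156), and 2 were higher, Slc1a5 at 0.47 ± 0.0423 (adjusted p = 0.00954) and Slc7a6 at 0.37 ± 0.0452 (adjusted p = 0.0183), where 4.89% of all probe sets were called, 2.3% as lower and 2.59% as higher. Among all named genes, 3.15% were called lower in this contrast and 3.23% higher. Array by array, both curdlan arrays lay below the other 4 in 10 of the 37 genes, against 16.1% of all named genes and 13.1% of all probe sets, and above them in 7, against 10.9% and 10.2%. The 10 were Psat1, Psph, Got2, Gpt2, Pck2, Slc7a5, Slc7a11, Slc3a2, Slc1a4 and Slc38a2. The 7 were Shmt1, Gclc, Slc7a6, Slc7a7, Slc1a5, Slc38a1 and Slc43a1.

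Between R406 plus curdlan and control, 0 of the 37 genes were called by limma, against 2.23% of all probe sets, 1.44% higher and 0.791% lower, and 8 (21.6%) had an unadjusted p under 0.05, against 22.1% of all named genes. Calls over all named genes were 1.92% higher and 1.1% lower. The differences were -0.19 ± 0.0603 for Slc1a4, -0.039 ± 0.0498 for Slc38a2, -0.17 ± 0.0488 for Slc1a5, -0.26 ± 0.0521 for Slc7a6 and -0.21 ± 0.0452 for Shmt1, with adjusted p from 0.0796 to 0.702. Calls in this comparison depended on the model of the spread: with a prior that follows the signal, 6 genes passed, namely Bcat2 and Slc6a9 higher and Shmt1, Slc7a6, Slc1a4 and Slc1a5 lower, while 8.01% of all probe sets were called in place of 2.23%.

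The same alternative raised the other counts. With curdlan 7 genes passed, adding Gclc and Slc7a6 as higher and Pck2 and Slc3a2 as lower, and under R406 13 passed, while 5.33% and 12.9% of all probe sets were called in place of 1.59% and 7.25%. Fits that left out 1 array had 2 residual degrees of freedom, and over all probe sets they called between 32 and 68 with curdlan in place of 465. Under R406, without curdlan replicate 1 or 2 the call of Slc1a5 remained, and without R406 plus curdlan replicate 1 or 2 none did; without control replicate 1 or 2, Slc7a6, Slc1a4, Slc1a5 and Slc38a2 passed.

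A list of 26 genes of the integrated stress response was set beside the members. It holds Atf4 itself, known targets of ATF4 and upstream components such as the eIF2 kinase genes, so its counts are not counts of ATF4 targets. In it, 7 were called lower with curdlan and 0 higher, against 0.71% and 1.42% of all named genes. In the contrast of curdlan against the mean of the other groups, 9 were lower and 0 higher, against 3.15% and 3.23%. Atf4 is 1 of the 9, and its place there is a description, since the contrast was chosen for its shape. The list was chosen with earlier results of these data known. Among the 9 in that contrast were also the eIF2 kinase gene Eif2ak3 (-0.34 ± 0.0466) and Impact (-0.41 ± 0.0538), whose product restrains another eIF2 kinase. By limma neither passed in curdlan against control (-0.15 and -0.41, adjusted p = 0.306 and 0.0575). Under R406 they rose by 0.53 and 0.40 (adjusted p = 0.00911 and 0.0267), which also enters the contrast. In the contrast the pseudokinase gene Trib3 stood at -1.81 ± 0.0562, the glutathione-degrading enzyme gene Chac1 at -1.31 ± 0.063, the mTORC1 inhibitor gene Ddit4 at -2.99 ± 0.0789 and the stress factor gene Atf3 at -1.19 ± 0.117. The median over that list was -0.096, against -0.038 over the amino acid genes and -0.0095 over all named genes. Atf5, a relative of Atf4 and itself a target of it, had a value of 0.0023 in the same contrast. Of 19 cytosolic aminoacyl-tRNA synthetase genes, which charge transfer RNA with amino acids and include known ATF4 targets, 0 were called by limma in any comparison. With curdlan, 4 (21.1%) were lower at an unadjusted p under 0.05 and 0 higher, against 8.45% and 7.42% of all named genes. Under R406, 2 (10.5%) were higher and 1 (5.26%) lower, against 14.2% and 10.9%. Both curdlan arrays lay below the other 4 in 7 of the 19 and above them in 0. The shares of all named genes were 16.1% and 10.9%. The median of the synthetase genes was -0.032 in the contrast.

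**Figure D4:**
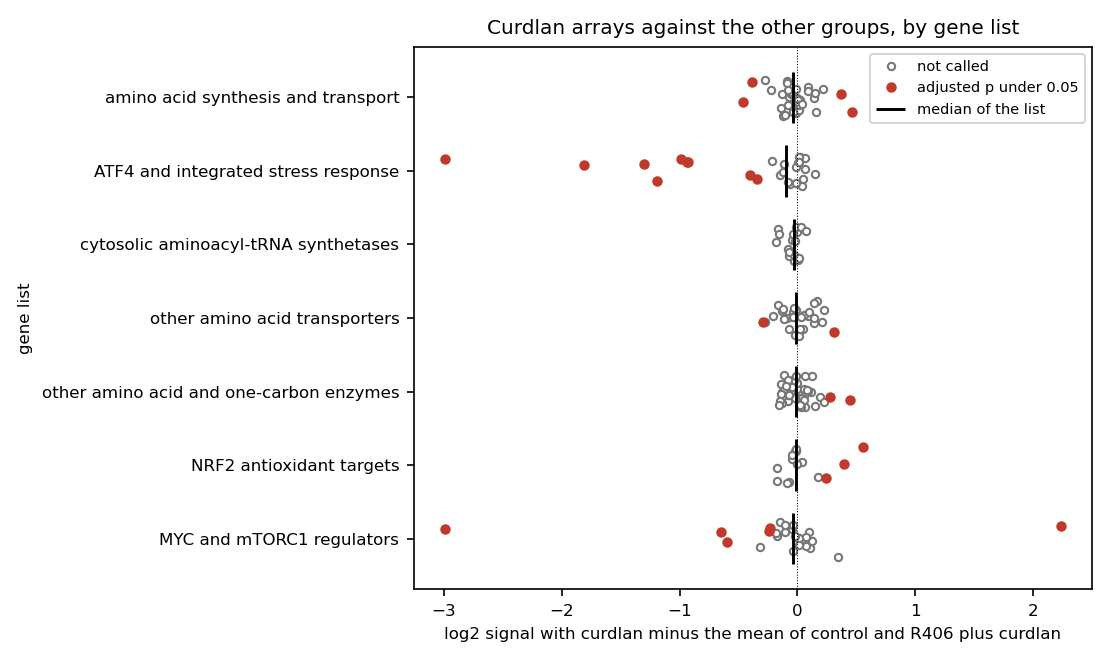
Log2 signal in curdlan arrays minus the mean of control and R406 plus curdlan arrays for every measured gene of 7 lists, with red points for an adjusted p under 0.05 and black bars for list medians. The stress-response list reaches -2.99, while the amino acid genes lie between -0.46 and 0.47.

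Of 29 further amino acid transporter genes, 0 were called with curdlan. An unadjusted p under 0.05 was reached by 5 (17.2%), against 15.9% of all named genes. Under R406, 2 rose and 1 fell, against 5.17% and 4.01% of all named genes. Slc38a9, which encodes the lysosomal arginine sensor upstream of mTORC1, rose by 0.42 ± 0.0467 (adjusted p = 0.0112), Slc43a2, which encodes LAT4, by 0.48 ± 0.0657 (adjusted p = 0.0195), and the mitochondrial glutamate carrier gene Slc25a22 fell by 0.49 ± 0.0604 (adjusted p = 0.0149). Of 43 further enzymes of amino acid, folate and nucleotide synthesis, Mat2a alone rose with curdlan and 4 fell under R406. The shares of all named genes were 1.42% and 4.01%. Mat2a (probe set 10767001), which encodes the enzyme that makes S-adenosylmethionine, rose by 0.38 ± 0.0519 with curdlan (adjusted p = 0.0454) and fell by 0.52 ± 0.0519 under R406 (adjusted p = 0.00874). The pyrimidine gene Umps fell by 0.45 ± 0.0479, the folate enzyme gene Mthfd2l by 0.37 ± 0.0539 and the purine gene Ppat by 0.33 ± 0.057 under R406.

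Other regulators of these pathways were set beside the members that rose with curdlan or fell under R406. Myc had log2 signals of 11.65 and 11.51 in control, 12.14 and 12.13 in curdlan and 8.29 and 8.12 in R406 plus curdlan arrays. Its order over the groups was that of Slc1a5 and Slc7a6, with a change of 0.55 ± 0.0807 with curdlan (adjusted p = 0.0537) and a fall of 15.2-fold under R406 (-3.93 ± 0.0807, adjusted p = 0.000112). Nfe2l2, which encodes NRF2, had changes of 0.0062 ± 0.0473 and 0.088 ± 0.0473. Of 15 NRF2 genes, 0 were called with curdlan. An unadjusted p under 0.05 was reached by 3 (20%), all higher, against 7.42% of all named genes. Under R406, 4 fell (26.7%), against 4.01% of all named genes. These were Hmox1 by 0.89 ± 0.0749, Srxn1 by 0.43 ± 0.0627, Txnrd1 by 0.28 ± 0.0438 and Osgin1 by 0.27 ± 0.0445. Under R406, 5.17% of all named genes rose and 4.01% fell. Of 26 regulators of MYC and mTORC1, 6 rose and 1, Myc itself, fell under R406. Among the 6 were the MYC antagonist gene Mxd1 at 0.94 ± 0.0516 and the folliculin gene Flcn at 0.89 ± 0.0592. Ddit4, which is also on the stress-response list, was another of them. The part of these factors in the changes of the members was not tested.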

How the data were processed

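Each array gave 1 log2 signal per probe set, which per the submitters' processing notes the authors computed in Expression Console; the sources used here do not give its version, background correction, normalization or genome build. The deposited values were taken as log2 from their range. The labels give no stimulus dose or time either.

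The platform annotation gave 1 symbol for 15310 of 29214 probe sets, several for 323 and none for 13581; per gene the brightest probe set was kept, and 3 members had more than 1. All 6 arrays entered 1 limma fit (R 4.3.3, limma 3.58.1, 3 residual and 2.16 prior degrees of freedom) without filter or further normalization, with calls made where p, adjusted by Benjamini-Hochberg across the 29214, was under 0.05. The fit was tested on simulated data. The labels do not say whether a group's arrays came from separate cultures, so p-values measure the spread between arrays, which may be technical. Arrays of a group correlated at 0.9975 to 0.9981, and no pair was a duplicate (at most 39 identical values). No list test was run.

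The labels do not say that a replicate number marks a shared culture or day, so no replicate block was used. Same-numbered arrays did not deviate together (correlations of deviations -0.115, -0.00454 and 0.113). The members, lists, the contrast of curdlan against the mean of the other groups and the rule for named genes (array values for members called with curdlan, under R406 or in that contrast, and up to 4 called genes of each other list per contrast, with Myc, Nfe2l2 and Clec7a in every case) were chosen with earlier results of these data known. Slc38a1, Slc6a9, Asns, Mthfd2, Gclc, Gclm, Pck2, Gpt2, Slc7a5, Psph and Bcat2, which were not called, were given array values after their values were seen, and Atf5 was named after its value was seen. Alternatives were quantile normalization, median centring, dim probe sets removed, trended or robust priors, only the groups compared, a replicate block, stricter thresholds, probe-set means and each array left out. Promoters came from RefSeq (GRCr8).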

Additional observations from a re-analysis of the deposited data

How the results depend on the processing

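Quantile normalization, median centring, a robust prior and the mean of a gene's probe sets left the counts of called genes within 1.5 times those given; the median change under R406 moved from 0.035 to 0.022 with quantile normalization and to 0.056 with median centring, and that between R406 plus curdlan and control from -0.038 to -0.013 with centring. Among probe sets above the median signal, 3 genes rose and 4 fell with curdlan (7 called), 7 rose and 6 fell under R406 (13), 2 rose and 3 fell between R406 plus curdlan and control (5), and 6 were higher and 4 lower in curdlan against the mean of the others (10), where 10.8%, 25.4%, 15.6% and 20.3% of the probe sets tested were called. With a prior that follows the signal these were 3 and 4 (7), 7 and 6 (13), 2 and 4 (6), and 5 and 4 (9), against 5.33%, 12.9%, 8.01% and 10% of all probe sets. With the arrays of the compared groups alone, 0 rose, 0 fell and 0 were called with curdlan. With a replicate block, 0 rose and 0 fell with curdlan (0 called), 0 rose under R406 and 2 were called in all, and 0 were lower and 2 called in curdlan against the others; the numbers are not known to pair the arrays. With the control numbers exchanged, an alternative chosen after seeing the data, 0 were called with curdlan and 3 under R406. At an adjusted p under 0.01, 0 rose and 0 fell with curdlan (0 called), 0 rose under R406 (2 called), and 1 was higher and 0 lower in the last contrast (1 called). At a change of at least 1.5-fold, 0 rose, 0 fell and 0 were called with curdlan, under R406 or in curdlan against the others. Leaving out each array in turn, 0 rose, 0 fell and 0 were called with curdlan; under R406 between 0 and 2 rose, between 0 and 2 fell and between 0 and 4 were called; against the mean of the others between 0 and 1 rose, between 0 and 1 fell and between 0 and 2 were called. Over the same fits the median change lay between 0.015 and 0.049 under R406, between -0.051 and -0.020 for R406 plus curdlan against control and between -0.050 and -0.024 for curdlan against the others. No value changed sign among those called. With 2 arrays a group, the median SE of a member's change was 0.0521, and no background measure was used, so how far dim signals were detected is not known.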

Other observations

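Between R406 plus curdlan and control, where no amino acid gene was called, several genes of the neighbouring lists were (limma, Benjamini-Hochberg adjusted over all probe sets). Over all named genes, 1.92% were higher and 1.1% lower. Of the 26 stress-response genes, 1, Eif2ak3 at 0.38 ± 0.0538 (adjusted p = 0.0411), was higher and 4 were lower with R406 plus curdlan. The lower ones were Trib3 at -1.18 ± 0.0648 (adjusted p = 0.00681), Atf3 at -1.02 ± 0.135 (adjusted p = 0.0356), Ddit4 at -0.95 ± 0.0911 (adjusted p = 0.0184) and Chac1 at -0.93 ± 0.0728 (adjusted p = 0.0127), so these stayed below control where Atf4 had a difference of 0.19. Herpud1, a gene of protein quality control in the endoplasmic reticulum, rose by 0.88 ± 0.0462 with R406 plus curdlan against curdlan alone (adjusted p = 0.00203). Against control, the folate enzyme gene Mthfd2l was lower at -0.45 ± 0.0539 (adjusted p = 0.0298), Umps at -0.35 ± 0.0479 (adjusted p = 0.0395) and the haem oxygenase gene Hmox1 at -0.67 ± 0.0749 (adjusted p = 0.0263). The MYC antagonist genes Mxd4 and Mxd3 were higher, at 0.86 ± 0.0458 (adjusted p = 0.00681) and 0.70 ± 0.0685 (adjusted p = 0.0189), and Myc itself was lower at -3.38 ± 0.0807 (adjusted p = 0.000583).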
